A study of Homo sapiens with 6 samples.

Results

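The interferon-stimulated genes are the genes that cells switch on when an interferon binds its receptor. They were taken as a list of 48 gene symbols, and 46 of them had a probe on the array that the platform's annotation names. A gene counted as measured where 3 or more of the 6 arrays gave its probe a detection p below 0.05, and 40 of the 48 were measured, out of 10781 named genes measured in all. For a gene with several such probes the probe with the highest mean was used. The cells were Capan1, a line of human pancreatic duct cancer cells that grows in a well differentiated form. They were seeded on gels of type I collagen and Matrigel that either held PS1, a human pancreatic stellate cell line, or held no stellate cells by the sample titles. The gels were raised onto a metal grid after 24 hours, fed from below and frozen on day 10, and the cancer cell layer was cut out by laser. There were 3 arrays with stellate cells and 3 of cancer cells alone. Another label gives exposure to PS1 for all 6 samples, so each direction below rests on the titles. Both groups are a single cancer line beside at most a single stellate line, and the labels name no immune cells in either gel.

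Interferons of type I and type III signal through receptor-bound Janus kinases to a complex that holds IRF9 and binds a DNA element called the ISRE. Interferon gamma, the type II interferon, works through the same kinase family to the GAS element, and through IRF1. The products block viral entry, sense and destroy foreign RNA, tag proteins with the ubiquitin-like ISG15 and present antigen. In many carcinoma lines part of the set is expressed with no virus present.

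With stellate cells in the gel 5 of the 40 measured genes rose and 0 fell at a limma adjusted p under 0.05. The genes that rose were IFITM1, IFITM2 and IFITM3, small membrane proteins that stop viruses from fusing with the cell, GBP2, a guanylate-binding GTPase best known as a target of interferon gamma, and UBE2L6, the conjugating enzyme for ISG15. Their rises lay between 1.74-fold and 3.24-fold. Over all named genes 2.65% were called higher and 2.11% lower, or 4.76% in either direction, against 12.5% of the 40 called higher. At an unadjusted limma p under 0.05, 11 of the 40 were higher and 4 lower, where 11.1% of all named genes were higher and 9.24% lower. The median log2 change of the 40 was 0.24 beside 0.01 for all named genes, with 26 values above 0 and 14 below. On median-scaled arrays 22 were above 0 and 18 below, because IRF7, HERC6, PLSCR1 and SP100 changed sign. That scaling moves the median of all genes to -0.20, and 26 of the 40 lay above it. Among widely used markers of an interferon response that did not pass, MX1, OAS1, IFI6, IFI27 and BST2 had values above 0, and IFIT1, IFIT2, IFIT3, ISG15 and OASL had values below 0.

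**Figure D1:**
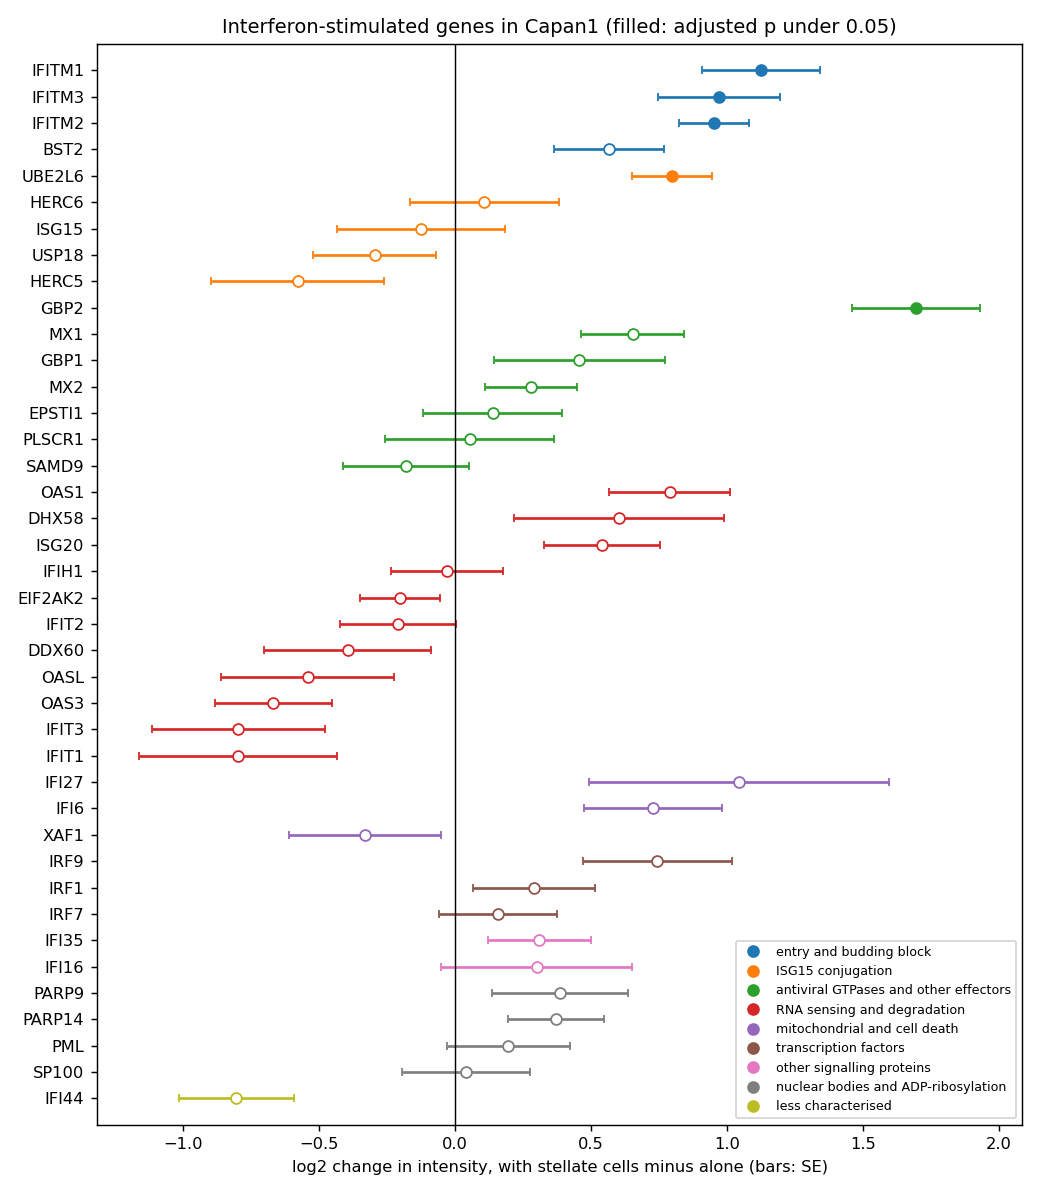
Log2 change in intensity with stellate cells relative to cancer cells alone for the 40 measured genes, coloured by role, with the standard error of the limma fit as bars. Filled points passed an adjusted p of 0.05: the 3 IFITM genes, UBE2L6 and GBP2. Among the 11 RNA-sensing and RNA-degrading genes 8 values lie below 0.

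The arrays were not alike. Mean deposited signal ran from 273 to 494 intensity units and 16325 to 19602 probes were detected per array. Replicate 3 with stellate cells had the fewest detected probes and the highest log2 signal on both probes for 28S ribosomal RNA. These read 12.81, against 5.94 to 8.27 on the other arrays, and 10.81, against 6.55 to 8.05. Each gene below is therefore given on every array, and the main counts are given without this array as well. Without it 13 of the 40 genes rose and 4 fell, where 9.61% of all named genes were higher and 8.01% lower. The 13 held the 5 above plus MX1, OAS1, ISG20, IFI6, IFI27, IRF9, DHX58 and PARP9, and the 4 that fell were IFI44, OAS3, IFIT1 and OASL. Leaving out replicates 1 or 2 with stellate cells left 2 and 3 genes higher, and leaving out replicates 1, 2 or 3 alone left 2 each, with 0 lower in all 5 fits. The shares of all named genes in these 5 fits were not counted, so these drops cannot be read as particular to the 40. Without replicate 3 alone, UBE2L6 and IFITM3 lost the call at changes of 0.84 and 1.10, larger than their 0.80 and 0.97 with all 6 arrays. Weighting each array by its estimated quality gave 15 genes higher and 6 lower, beside 11.4% and 9.9% of all named genes. GBP2 and IFITM2 passed in each of the 6 fits that lack an array.

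**Figure D2:**
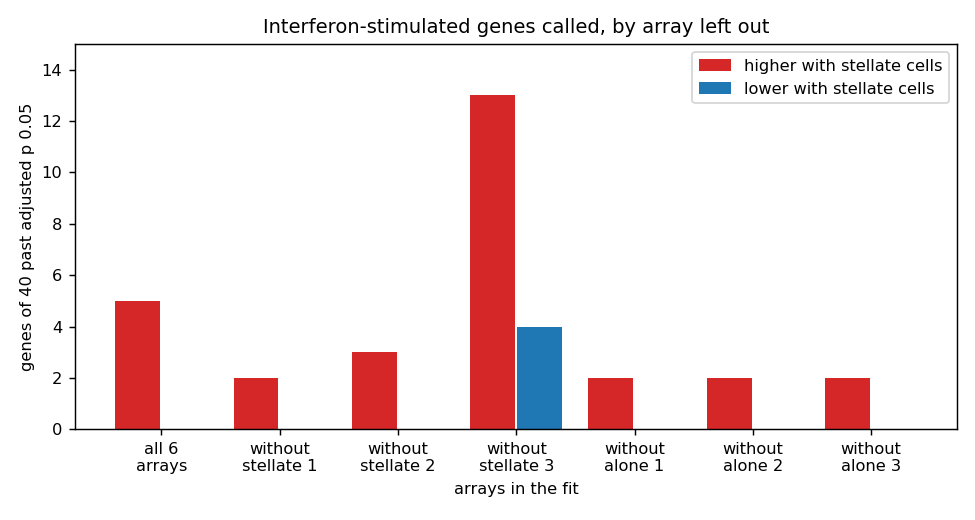
Number of the 40 measured genes past an adjusted p of 0.05 in each direction with all 6 arrays and with each array left out in turn. The count of higher genes is 5 with all arrays, 13 without replicate 3 with stellate cells and 2 or 3 without any other array.

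The promoters of genes that rose and of genes with values below 0 are set out here, because the ISRE is the element through which type I and type III interferons act. Of the 48 genes 36 had a start site in the RefSeq promoter table for GRCh38.p14. The ISRE core was searched as GAAA and GAAA with any 2 bases between them, and the GAS element as TTCNNNGAA, both on either strand, in the 250 bases before each start. The ISRE core was present in 22 of the 36, or 61.1%, and in 3.07% of all 27305 promoters in the table. The GAS element was present in 10 of the 36, or 27.8%, and in 6.78% of all promoters. In 6 of the 36 both were present, and in 3 of these the letters overlap. The last 150 bases before the start are printed for 5 genes, on the gene's own strand and 5′ to 3′, with ISRE core matches in capitals.
IFITM1, chr11:313890-314039, plus strand: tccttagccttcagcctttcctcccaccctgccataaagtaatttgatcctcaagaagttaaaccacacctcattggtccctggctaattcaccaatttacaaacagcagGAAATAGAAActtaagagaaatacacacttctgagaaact
IFITM3, chr11:320861-321010, minus strand: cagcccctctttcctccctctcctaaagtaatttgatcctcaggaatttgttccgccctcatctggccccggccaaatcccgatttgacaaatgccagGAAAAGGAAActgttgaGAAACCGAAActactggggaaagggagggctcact
UBE2L6, chr11:57567936-57568085, minus strand: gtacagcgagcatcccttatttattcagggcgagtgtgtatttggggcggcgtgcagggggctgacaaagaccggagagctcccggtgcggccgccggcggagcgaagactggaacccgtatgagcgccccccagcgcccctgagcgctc
IFI44, chr1:78649639-78649788, plus strand: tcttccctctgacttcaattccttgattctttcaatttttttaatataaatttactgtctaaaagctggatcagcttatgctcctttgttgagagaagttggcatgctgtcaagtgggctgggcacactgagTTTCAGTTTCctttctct
IFIT1, chr10:89392473-89392622, plus strand: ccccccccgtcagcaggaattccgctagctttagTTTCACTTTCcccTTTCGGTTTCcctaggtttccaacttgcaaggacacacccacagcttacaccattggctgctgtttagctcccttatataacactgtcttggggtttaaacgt

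IFITM1 and IFITM3, which rose, carry the ISRE core with its nearest copy beginning 40 and 35 bases before the start, and their printed windows share an identical run of 19 bases. IFI44 and IFIT1, with changes below 0, carry it too, on the opposite strand, nearest at 18 and 103 bases. UBE2L6 rose and the letters are not in its 250 bases. Of the 31 measured genes with a promoter in the table, the 19 with an ISRE core had 10 changes above 0 and 9 below, with a median log2 change of 0.05, and the 12 without it had a median of 0.30. The 10 with a GAS element had 9 changes above 0 and 1 below, with a median of 0.47, and the 21 without it had a median of 0.04. Called higher were 2 of the 19 with an ISRE core and 1 of the 12 without it. For the GAS element these were 1 of the 10 and 2 of the 21. These are descriptions of letters in a fixed window, with no test. IFITM2 and GBP2 were not in the table used.

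The genes whose products block viral entry or release held 3 of the 5 rises. IFITM2 had log2 intensities of 12.19, 12.16 and 12.08 with stellate cells, in the order of the replicate numbers as throughout, against 11.13, 11.20 and 11.24 alone. The arrays of each group lay within a narrow band, far from those of the other group. It rose 1.94-fold, a log2 change of 0.95 ± 0.13 (SE, limma adjusted p = 0.00251), and passed in 17 of 18 other settings. The call was lost with median scaling, at 0.69 (adjusted p = 0.124). IFITM1 had log2 intensities of 9.75, 9.62 and 8.90 with stellate cells and 8.41, 8.16 and 8.32 alone. Replicate 3 with stellate cells was the lowest of its group and still above every array alone. IFITM1 rose 2.18-fold, by 1.12 ± 0.22 (SE, adjusted p = 0.0150).

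IFITM3, the family member most tied to resistance against influenza, had log2 intensities of 12.45, 11.91 and 11.65 with stellate cells and 11.21, 10.60 and 11.29 alone. IFITM3 rose 1.96-fold, by 0.97 ± 0.22 (SE, adjusted p = 0.0328), and the groups did not overlap. The IFITM genes lie side by side on chromosome 11 and are similar in sequence, so how far each probe reads its own gene alone is uncertain. IFITM1 passed in 11 and IFITM3 in 10 of 18 other settings, with changes of 0.85 to 1.38 and 0.71 to 1.15. BST2, or tetherin, which holds budding virions at the cell surface, had log2 intensities of 8.23, 8.20 and 8.11 with stellate cells and 7.75, 7.22 and 7.88 alone. The groups did not overlap, but the change of 0.57 ± 0.20 (SE) did not pass (adjusted p = 0.155).

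**Figure D3:**
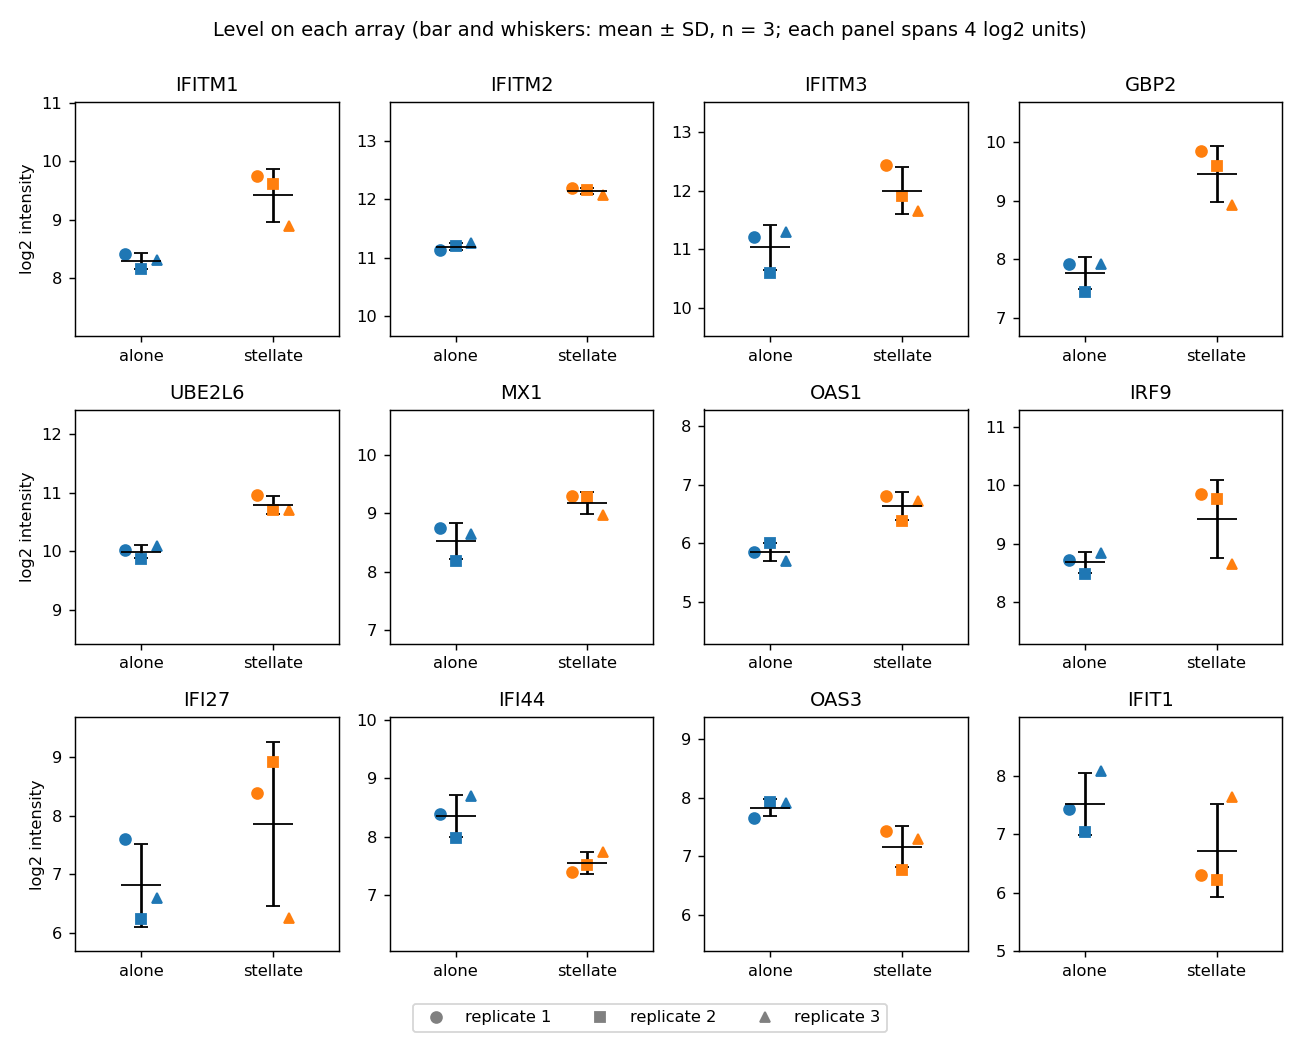
Log2 intensity on each array for 12 of the genes, with the mean and SD of each group (n = 3) and a marker for each replicate. In IFITM1, IFITM2, IFITM3, GBP2, UBE2L6, MX1 and OAS1 all arrays with stellate cells lie above those alone, in IFI44 and OAS3 below, and in IRF9, IFI27 and IFIT1 replicate 3 with stellate cells lies among the arrays alone.

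GBP2 had the largest fold change among the 40. Guanylate-binding proteins coat intracellular pathogens and their vacuoles. Its log2 intensities were 9.84, 9.60 and 8.93 with stellate cells and 7.91, 7.45 and 7.92 alone, with a gap between the groups on every array. It rose 3.24-fold, by 1.69 ± 0.24 (SE, adjusted p = 0.00282), and passed in all 18 other settings, with changes from 1.35 to 1.96. GBP1, a second member of the family, had a value of 0.46 ± 0.31 (SE, adjusted p = 0.489) and was detected on 2 arrays of each group. Of the other antiviral effectors MX1, a dynamin-like GTPase that traps viral nucleocapsids, had log2 intensities of 9.29, 9.29 and 8.97 with stellate cells and 8.76, 8.18 and 8.65 alone. The groups did not overlap and the change was 0.65 ± 0.19 (SE, adjusted p = 0.0820). MX2, its relative that acts on retroviruses at the nuclear pore, had a value of 0.28 ± 0.17 (SE).

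SAMD9, EPSTI1 and PLSCR1 had values of -0.18, 0.14 and 0.05, none of which passed. EPSTI1 takes its name from its induction in epithelial breast cancer cells grown with stromal fibroblasts. It was near the detection limit here, with 2 arrays detected in each group and log2 intensities of 5.28, 5.25 and 5.11 with stellate cells and 5.21, 4.68 and 5.33 alone. The 95% interval of its change ran from -0.42 to 0.69. These groups overlapped.

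The ISG15 pathway attaches ISG15 to proteins through an activating enzyme, UBA7, a conjugating enzyme, UBE2L6, and a ligase, chiefly HERC5 in human cells, and USP18 removes it. UBE2L6 had log2 intensities of 10.97, 10.72 and 10.70 with stellate cells and 10.03, 9.88 and 10.09 alone, in groups that did not overlap. It rose 1.74-fold, by 0.80 ± 0.15 (SE, adjusted p = 0.0124). Its dimmer probe had a change of 0.03 ± 0.28 (SE, adjusted p = 0.972), and the mean of both probes did not pass. The call was also lost in 6 of the other settings. UBA7, which is not among the 48, stood at 8.45, 8.38 and 8.08 with stellate cells and 6.90, 6.76 and 6.68 alone. UBA7 rose 2.87-fold, by 1.52 ± 0.19 (SE, adjusted p = 0.00158), and passed in all 18 other settings.

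ISG15 itself had log2 intensities of 8.68, 8.76 and 9.27 with stellate cells and 9.48, 8.16 and 9.45 alone. These overlap over most of their range, and the change was -0.12 with a 95% interval from -0.80 to 0.55. HERC5 had a value of -0.58 ± 0.32 (SE, adjusted p = 0.372) and HERC6 one of 0.11 ± 0.27 (SE, adjusted p = 0.880). USP18 had log2 intensities of 5.74, 5.61 and 5.68 with stellate cells and 5.76, 5.96 and 6.20 alone, with a change of -0.30 ± 0.22 (SE, adjusted p = 0.540). Of the 5 listed genes of this pathway 1 rose.

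The largest role group, RNA sensing and degradation, had 11 of its 13 genes measured, with 0 past the threshold and a median log2 change of -0.21. Of the 11 values 8 were below 0, the same number under each other scaling tried. The IFIT proteins bind viral RNA that lacks the host cap. IFIT1 had log2 intensities of 6.31, 6.21 and 7.63 with stellate cells and 7.43, 7.04 and 8.08 alone. Replicates 1 and 2 with stellate cells lay below all arrays alone and replicate 3 did not, and the change was -0.80 ± 0.36 (SE, adjusted p = 0.270). Without that array IFIT1 fell by 1.26 on the log2 scale (adjusted p = 0.00293). With any other array left out IFIT1 did not pass, at a limma adjusted p of 0.294 to 0.659. IFIT3 had log2 intensities of 5.72, 5.63 and 5.20 with stellate cells and 6.41, 5.61 and 6.92 alone, with a change of -0.80 ± 0.32 (SE, adjusted p = 0.199). Its arrays overlapped at replicate 2 alone. A dimmer IFIT3 probe had a change of -0.05 ± 0.27 (SE, limma adjusted p = 0.954). The mean of both IFIT3 probes changed by -0.42 (limma adjusted p = 0.438). IFIT2 had a value of -0.21 ± 0.21 (SE).

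The oligoadenylate synthetases make the second messenger that activates RNase L, and they did not share a direction. OAS1 had log2 intensities of 6.82, 6.38 and 6.73 with stellate cells and 5.85, 6.002 and 5.70 alone, a change of 0.79 ± 0.22 (SE, adjusted p = 0.0717). Its other probes had changes of 0.15 and 0.42. OAS3 had log2 intensities of 7.42, 6.77 and 7.29 with stellate cells and 7.66, 7.93 and 7.90 alone, a change of -0.67 ± 0.21 (SE, adjusted p = 0.113). The groups did not overlap in either gene, in opposite directions, and neither passed. OASL, which has lost the synthetase activity, had a value of -0.54 ± 0.32 (SE, adjusted p = 0.408). No test compared OAS1 with OAS3.

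ISG20, an exonuclease that degrades single-stranded RNA, had log2 intensities of 10.00, 9.83 and 9.52 with stellate cells and 9.51, 8.77 and 9.45 alone. All arrays with stellate cells were above all arrays alone, and the change was 0.54 ± 0.21 (SE, adjusted p = 0.192). EIF2AK2, the kinase PKR that halts translation on sensing double-stranded RNA, had log2 intensities of 9.72, 9.58 and 9.48 with stellate cells and 9.72, 9.87 and 9.79 alone, with a change of -0.20 ± 0.15 (SE, adjusted p = 0.516). IFIH1, the RNA sensor MDA5, had a value of -0.03 with a 95% interval from -0.48 to 0.42. DHX58, the sensor LGP2, had a value of 0.60 ± 0.39 (SE) and DDX60, a helicase, one of -0.39 ± 0.31 (SE).

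Among the transcription factors IRF9, the DNA-binding part of the complex that reads the ISRE, had log2 intensities of 9.86, 9.77 and 8.65 with stellate cells and 8.72, 8.49 and 8.84 alone. Replicates 1 and 2 with stellate cells stood above all other arrays, and replicate 3 lay within the range of the arrays alone. The change was 0.74 ± 0.27 (SE, adjusted p = 0.163), and without that array IRF9 rose by 1.13 (adjusted p = 0.000138). With any other array left out IRF9 did not pass, at a limma adjusted p of 0.291 to 0.445. IRF1, the factor of the interferon gamma response, had a value of 0.29 ± 0.22 (SE) and IRF7, which amplifies type I interferon production, one of 0.16 ± 0.22 (SE). IFI35, which binds the interferon-induced protein NMI, had log2 intensities of 10.12, 9.499 and 9.78 with stellate cells and 9.52, 9.71 and 9.26 alone, with a change of 0.31 ± 0.19 (SE, adjusted p = 0.429). IFI16, a nuclear DNA sensor, had a value of 0.30 ± 0.35 (SE).

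IFI27, a mitochondrial protein, had the widest spread of the set. Its log2 intensities were 8.39, 8.92 and 6.26 with stellate cells and 7.60, 6.24 and 6.60 alone. Replicates 1 and 2 with stellate cells were the highest and replicate 3 was next to the lowest array, so the change of 1.04 ± 0.55 (SE) did not pass (adjusted p = 0.348). IFI6, which restrains cell death, had log2 intensities of 7.38, 7.93 and 7.36 with stellate cells and 7.14, 6.35 and 6.999 alone, with a change of 0.73 ± 0.25 (SE, adjusted p = 0.142). A dimmer IFI6 probe had a change of -0.29 ± 0.35 (SE), so the probes disagree in direction. XAF1, a cell death promoter, had a value of -0.33 ± 0.28 (SE).

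IFI44, a cytoplasmic protein with antiviral activity, was the gene nearest the threshold among those with values below 0. Its log2 intensities were 7.39, 7.51 and 7.74 with stellate cells and 8.38, 7.98 and 8.70 alone, in groups that did not overlap. The change was -0.80 ± 0.21 (SE, adjusted p = 0.0552). It fell at an adjusted p under 0.05 in 5 of 18 other settings, at 0.000581 at the least. The genes of nuclear bodies and ADP-ribosylation, PML, SP100, PARP9 and PARP14, had values of 0.20, 0.04, 0.39 and 0.37, and 0 passed. Dimmer probes of SP100 and PARP9 had changes of 0.21 and 0.80, neither past the threshold. PARP14, a mono-ADP-ribosyltransferase, was higher on each array with stellate cells than on any alone, with a 95% interval from -0.01 to 0.76.

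**Figure D4:**
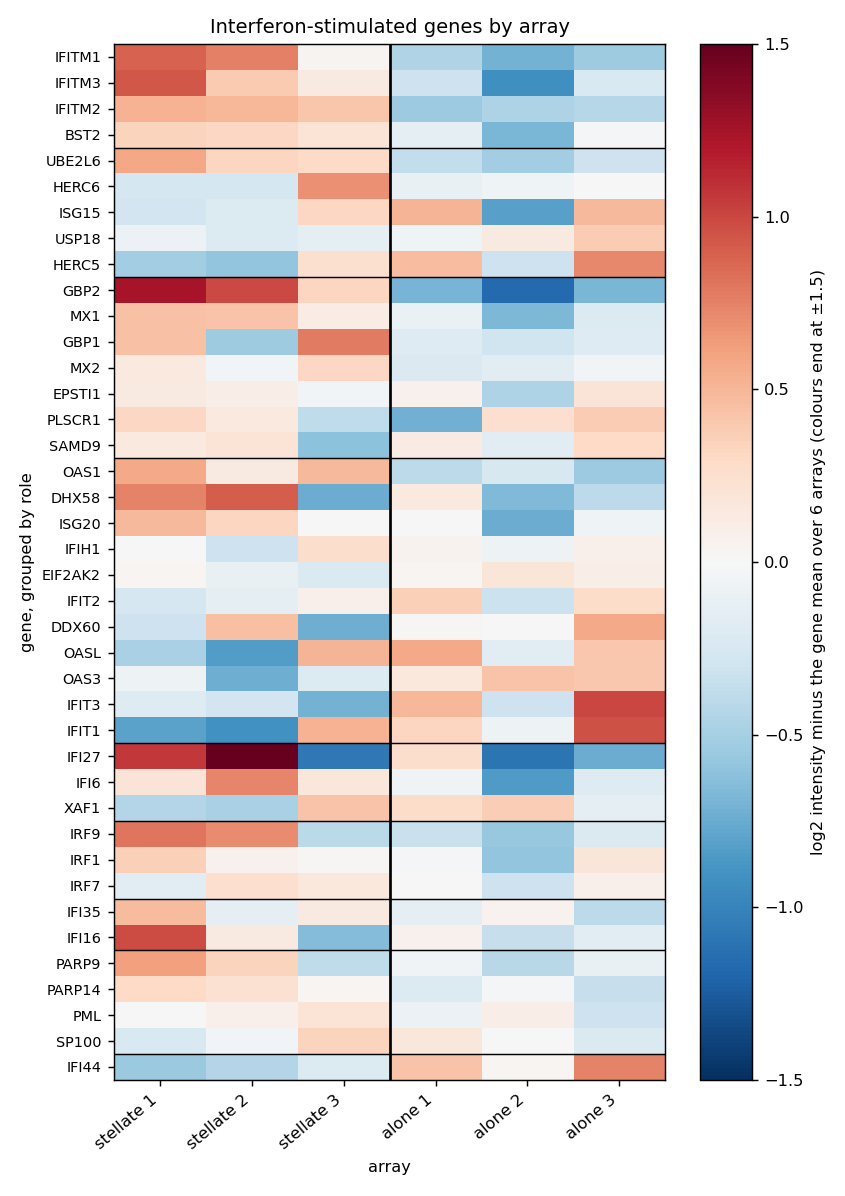
Log2 intensity of each of the 40 genes on each array, less the gene's mean over the 6 arrays, with genes grouped by role and the groups of arrays split by the vertical line. Replicate 3 with stellate cells has the opposite colour to replicates 1 and 2 in IRF9, IFI27, DHX58, PARP9, HERC5, OASL and IFIT1, among other genes.

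In 12 of the 40 genes, or 30%, all arrays with stellate cells lay above all arrays alone, and in 3, or 7.5%, below. Over all named genes these shares were 14.6% and 11.5%. The mean of the 40 genes, each centred over the 6 arrays, was 0.20, 0.09 and 0.017 with stellate cells and -0.02, -0.32 and 0.0199 alone. The groups thus overlap slightly, and replicate 2 alone was the lowest array. Of the 40 genes 35 were detected on all 6 arrays. The other 5, GBP1, EPSTI1, IFI16, IFIT3 and DDX60, were detected on 4 or 5 arrays, with at least 2 in each group.

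The remaining 8 genes were not measured. CXCL10, a chemokine of the interferon gamma response, was just outside the detection rule, detected on 2 arrays of cancer cells alone and on 0 with stellate cells. Its log2 intensities were 4.69, 4.79 and 4.90 with stellate cells and 5.72, 4.87 and 6.34 alone. IFIT5 and IFI44L were each detected on 1 array of cancer cells alone, and OAS2, RSAD2 and TRIM22 on 0. STAT2 and LGALS3BPP1 had no probe named to them in the annotation table. LGALS3BP, a secreted glycoprotein induced by interferon whose symbol differs by the last letters, stood at 9.03, 8.71 and 8.70 with stellate cells and 8.34, 7.77 and 7.88 alone. LGALS3BP rose 1.76-fold, by 0.82 ± 0.20 (SE, adjusted p = 0.0386), and passed in 10 of 18 other settings.

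Interferons, their receptors and the genes that sense foreign nucleic acid were taken from further lists. Of the 9 interferon genes on the list used, all with a probe, 0 passed the detection rule. IFNE was detected on 1 array of cancer cells alone, and the other 8, IFNB1 and IFNG among them, on 0. Interferon genes outside that list were not looked up. All 9 measured receptor and kinase genes missed the threshold, with changes from -0.13 to 0.39. IFNAR1 and IFNAR2, the type I receptor chains, had values of 0.19 and -0.13, IFNGR1 and IFNGR2, those of type II, 0.17 and 0.09, and IFNLR1 and IL10RB, those of type III, 0.11 and 0.39. The kinases JAK1, JAK2 and TYK2 had values of 0.03, 0.03 and -0.04. Their 95% intervals reach 0.66, 0.69 and 0.33 at the upper end. Among 7 measured interferon regulatory factors and their partners 0 passed, with IRF2BPL at 0.46, IRF2 at 0.34 and IRF8 at -0.30. Among 9 negative regulators 0 passed, with SOCS3, detected on 1 array with stellate cells, at -0.59, PTPN6 at 0.41 and PTPN2 at -0.39.

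Of 11 measured genes of nucleic acid sensing 0 rose. The 1 called lower, CGAS, met the detection rule through the arrays of cancer cells alone, and none is called lower where detection on all 6 arrays is required. CGAS, the cytosolic DNA sensor that makes cyclic GMP-AMP, had log2 intensities of 5.29, 4.92 and 4.73 with stellate cells and 5.88, 6.64 and 6.25 alone, and passed detection on all 3 arrays alone but on 1 of the co-cultures. Most of the values with stellate cells are thus not above background, and the size of the difference depends on its correction, at -1.28 ± 0.27 (SE, adjusted p = 0.0210) with it and -0.50 without it. The call was lost on leaving out replicate 2 of the co-cultures (adjusted p = 0.0704) and replicates 2 or 3 of the cancer cells alone (adjusted p = 0.122 and 0.110). STING1, the receptor for that messenger, had log2 intensities of 9.04, 8.85 and 8.40 with stellate cells and 7.96, 7.91 and 8.16 alone, a change of 0.76 ± 0.20 (SE, adjusted p = 0.0518). The groups did not overlap in either gene. MYD88 and MAVS, adaptors of Toll-like and RNA sensing, had values of 0.49 and -0.44.

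Of 38 further interferon-induced genes that are not among the 48, 2 rose, UBA7 and LGALS3BP, and 0 fell, with a median log2 change of 0.23. The share called higher was 5.26%, beside 2.65% of all named genes. ZNFX1, CASP4 and CASP1, an RNA helicase and inflammatory caspases, had values of 0.63 ± 0.18, 0.54 ± 0.15 and 0.92 ± 0.29 (SE), with adjusted p of 0.0756, 0.0759 and 0.104. Together the pathway lists outside the 48 genes had 74 measured genes, of which 2 rose and 1, CGAS, was called lower. These are 2.7% and 1.35%, near the 2.65% and 2.11% of all named genes. Without replicate 3 with stellate cells 13 rose, or 17.6% beside 9.61% of all named genes, and CGAS and MAVS were called lower, or 2.7% beside 8.01%. UBA7 was the only gene that rose when replicate 1 or 2 of the co-cultures, or replicate 2 or 3 of the cancer cells alone, was left out.

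RNA of other cells was measured by marker lists. In these bulk samples fewer cells of a type and less RNA per cell cannot be told apart. Of 16 stellate and fibroblast markers 4 were measured, VIM, ACTA2, COL1A1 and COL6A3, and the mean level of these ran from 5.43 to 6.04 log2 units with stellate cells and from 5.72 to 5.83 alone. COL1A2, LUM, PDGFRA, PDGFRB, FAP, THY1 and FN1 were detected on 0 arrays, and DCN on 2 with stellate cells and 0 alone. COL3A1, SPARC and POSTN were each detected on 0 arrays with stellate cells and 1 alone, and COL5A1 on 1 of each group. VIM, ACTA2 and COL1A1 had changes of -0.07, -1.02 and 0.13, none past the threshold. The COL6A3 value was 0.61 ± 0.35 (SE, limma adjusted p = 0.397), in groups that overlapped. Of 16 leukocyte markers 3 were measured, CD68, CD8A and ITGAM, with a mean level of 6.71 to 7.14 with stellate cells and 6.92 to 7.26 alone. PTPRC, the pan-leukocyte gene, was detected on 1 array of cancer cells alone and on no co-culture array. CD68 and CD8A had changes of 0.31 and -0.02. ITGAM, detected on 3 arrays of cancer cells alone and on 0 with stellate cells, met the detection rule only through the arrays alone. Its value was -0.78 ± 0.25 (SE, limma adjusted p = 0.115), and its levels with stellate cells are not above background. None of the 3 passed the threshold.

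All 10 epithelial markers were measured, with a mean level of 10.79 to 11.07 with stellate cells and 10.52 to 10.67 alone. Of these MUC1 and ELF3 rose, by 1.20 ± 0.15 and 1.07 ± 0.17 (SE, adjusted p = 0.00148 and 0.00484), and KRT19 and EPCAM had changes of 0.03 and -0.11. The part of the stellate, leukocyte and epithelial levels in the changes of the interferon-stimulated genes was not tested.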

How the data were processed

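Illumina BeadChips read biotin-labelled RNA of laser-captured Capan1 cells, 3 arrays with stellate cells and 3 alone, grouped by title. Per the file headers, the deposited table lists for every probe and array an intensity, without normalization, next to its detection p-value. The submitters' processing notes list the programs BeadStudio and GenomeStudio 2011.1; what was done in each is not given here. A second deposited table of intensity values, taken as normalized and on a linear scale, served as an alternative. Its array medians were 122.90 to 122.96, and on each array its probes ranked as in the first table (rank correlation 1).

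Background was corrected by normexp with control levels inferred from detection p, an offset of 16 was added, and values were quantile normalized and taken to log2. Of 47228 probes 18165, detected on at least 3 of 6 arrays, were fitted with limma 3.58.1 (lmFit, eBayes with intensity trend, two-sided) under R 4.3.3, with Benjamini-Hochberg adjustment over all of them and a threshold of 0.05, and the fit was tested on simulated data. Of these 13986 had 1 gene symbol, 3 several and 4176 none, updated to GRCh38.p14 RefSeq names. 6 arrays limit the precision. Whether replicates came from separate cultures is not stated, and p-values reflect only how these samples spread, which may be technical.

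The genes, lists and roles were chosen with earlier results of these data known. Values on every array are given for genes past the threshold, the 10 next by p and the 6 with the highest mean. From each pathway list, genes past the threshold and up to 3 more by p are named, with all receptors and kinases, and from marker lists the 3 with the highest mean and those past the threshold. The change of COL6A3 was given beyond this rule, after its value was seen. Genes outside this rule shown with array values (ISG15, USP18, EPSTI1, IFI27, CXCL10, STING1) were chosen after their values were seen. Other background corrections, offsets, normalizations, filters, probe rules, variance models, array weights, a replicate block, thresholds and left-out arrays were tried. Figures were drawn with matplotlib 3.10.9.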

Additional observations from a re-analysis of the deposited data

How the results depend on the processing

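None of the genes past the threshold, the 10 next by p and the 6 with the highest mean changed sign under any alternative tried. The 5 higher genes became 1, GBP2, with median scaling, 15 with array weights and 2 with array brightness as a covariate, which was chosen after seeing the data, and 2 to 13 with 1 array left out. The count of lower genes, 0, became 1, IFI44, with cyclic loess, with the mean of all detected probes, with a threshold of 0.1 and with the replicate block, 6 with array weights, and 0 to 4 with 1 array left out. Whether the replicate numbers pair the arrays is not stated in the labels. Same-numbered deviations correlated at -0.02, -0.03 and 0.08, within the -0.08 to 0.09 of differently numbered ones, so no pairing was seen. The block changed no other count past 1.5 times. The median change of 0.24 became 0.11 without background correction, 0.11 in the authors' value table and 0.0448 with median scaling, where it lies 0.24 above the median of all genes, and 0.18 to 0.28 with 1 array left out.

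In the pathway lists outside the 48 genes, alternatives for which were added after seeing the data, the 2 higher genes became 1 with median scaling, without the detection filter, without the intensity trend and with brightness, 14 with array weights, 5 at a threshold of 0.1, and 1 to 13 with 1 array left out. The 1 lower gene became 0 with detection on all 6 arrays, where CGAS is not tested, and with brightness, 2 with array weights, and 0 to 2 with 1 array left out. The cause of these changes was not tested.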
